A study of Rattus norvegicus with 9 samples.

Results

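Cells oppose reactive oxygen species with a small set of enzymes, and 10 genes of this defense were followed here in rat dorsal root ganglia (DRGs): the transcription factor gene Nfe2l2, the glutathione synthesis genes Gclc and Gclm, the peroxide-removing genes Gpx1 and Cat, the superoxide dismutases Sod1, Sod2 and Sod3, and the detoxifying genes Nqo1 and Hmox1. They were chosen by name, as the rows of the gene table that carry these symbols, with earlier results of these data known. All 10 were found among the 20413 genes listed, and all 10 were among the 17187 genes that passed the filter on low values and were tested.

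RNA-Seq was carried out on right-sided L4–6 DRGs, which hold the sensory neurons of the hind limb, from male Sprague Dawley rats of 8–10 weeks. The table has 9 libraries, 3 for each of 3 groups, all collected on day 10. Rats of the chronic post-ischemia pain (CPIP) group, a model of complex regional pain syndrome, were anesthetized and had a hind paw made ischemic for 3 h by a tight O-ring and then reperfused. Sham rats, named Con in the sample labels, received the anesthesia and a cut O-ring that left the blood flow open, and no electroacupuncture (EA). CPIP+EA rats received, after the same ischemia, 100 Hz EA at the ST36 and BL60 acupoints of both legs for 30 min once a day on 10 days. No group received needles without current, and none received EA without CPIP, so handling and needling cannot be told apart from the current. The model acts on the paw, whereas the RNA comes from the ganglia.

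Superoxide, which leaks from mitochondria and is made by oxidases, is converted by superoxide dismutases into hydrogen peroxide. Catalase and the glutathione and thioredoxin peroxidases then turn the peroxide into water. The glutathione peroxidases use glutathione, and glutamate-cysteine ligase carries out the first step of its synthesis. Under electrophilic or oxidative stress, the factor Nrf2, encoded by Nfe2l2 and held low by Keap1, binds antioxidant response elements and raises the transcription of many of these genes, among them Nqo1, Gclc, Gclm, Hmox1, Srxn1 and Txnrd1. Reactive oxygen species are known to form in ischemic and reperfused tissue and to sensitize pain pathways.

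Values are FPKM, that is fragments scaled to the length of the transcript and to the mapped fragments of the library, so levels can be compared between genes. Each difference between groups is a log2 fold change on the log2(FPKM + 0.5) scale from 1 limma fit over the 9 libraries, with a 95% interval. A gene passed the threshold at a Benjamini-Hochberg adjusted p under 0.01, over all genes tested, if it also differed by 1.5-fold or more in either direction. Summed over genes, FPKM came to 445647 to 482940 per library. FPKM values carry no read counts, so no counting error can be given for a single value, and precision is set by how many libraries there are. All 8 DRG neuron markers checked were above 0 in all 9 libraries. CPIP+EA replicate 3 had the highest summed FPKM of the 9 libraries for erythroid markers (2448, against 267 to 1570 in the others) and for neutrophil markers (655, against 38.4 to 280.01). In such bulk samples, fewer cells of a type and less RNA per cell cannot be told apart.

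The promoters of the defense genes are shown first, since the antioxidant response element is the sequence through which Nrf2 acts. RefSeq promoters of the rat assembly GRCr8, from 250 bases before to 50 bases after the transcription start, were matched for 8 of the 10 genes, all but Hmox1 and Sod3. The core of the element, TGACNNNGC, was searched on both strands. It was found in 3 of the 8, and in 12.1% of all 33469 promoters of this length. The matches were in Gclm, at positions -172 to -164 from the start, in Sod2, at positions -35 to -27, and in Nfe2l2 itself, at positions 39 to 47, counted into the transcript. Each window is written 5′ to 3′ on the strand of its gene, with the match in capitals. The Gclm and Sod2 matches read as the core on the opposite strand.
Gclm, chr2:213031933-213032001, plus strand: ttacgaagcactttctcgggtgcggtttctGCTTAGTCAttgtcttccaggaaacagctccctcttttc
Sod2, chr1:50050169-50050233, minus strand: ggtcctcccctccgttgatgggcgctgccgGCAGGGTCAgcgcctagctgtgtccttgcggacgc
Nfe2l2, chr3:81028950-81028971, minus strand: gactagccatTGACGCCGCctc
A match is a description of letters and not a site shown to be bound, and no match says only that these letters are not in this window. The related motif TGANTCA, bound by AP-1 and Bach-Maf factors, was in 0 of the 8 windows and in 7.33% of all promoters. These motifs can share letters, but none of the printed windows holds both. The GC box GGGCGG was in 7 of the 8 and in 33.1% of all promoters.

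The 10 genes spanned a wide range of levels. Sod1 had the highest mean over the 9 libraries, 562 FPKM, followed by Sod2 at 158, Gpx1 at 78.3, Sod3 at 51.8, Gclm at 46.2, Cat at 35.3, Nqo1 at 34.6, Nfe2l2 at 23.4, Gclc at 13.9 and Hmox1 at 8.93. The ranges of neighbours in this order lay apart for Sod1 and Sod2, Sod2 and Gpx1, Nfe2l2 and Gclc, and Gclc and Hmox1. The other neighbours overlapped, and Cat was above Nqo1 in 5 of the 9 libraries. Among the 10, Sod1 and Sod2 thus stood above Gpx1 and Cat, while the heme oxygenase that stress induces in many tissues was the lowest. Glutathione peroxidases outside the 10 lay on either side of Sod2, with Gpx4 above it at 362 to 447 FPKM and Gpx7 below it at 11.6 to 16.6 FPKM.

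The genes also differed in how much they varied between libraries of 1 group. The within-group SD on the log2 scale was 0.33 for Gpx1, 0.30 for Nqo1, 0.22 for Hmox1 and 0.18 for Sod2, against a median of 0.14 over all genes tested. It was 0.068 for Cat and 0.066 for Gclc. The highest library was 2.02 times the lowest for Gpx1 and 1.15 times for Cat, so a change of a given size was easier to see in some of these genes than in others.

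**Figure D1:**
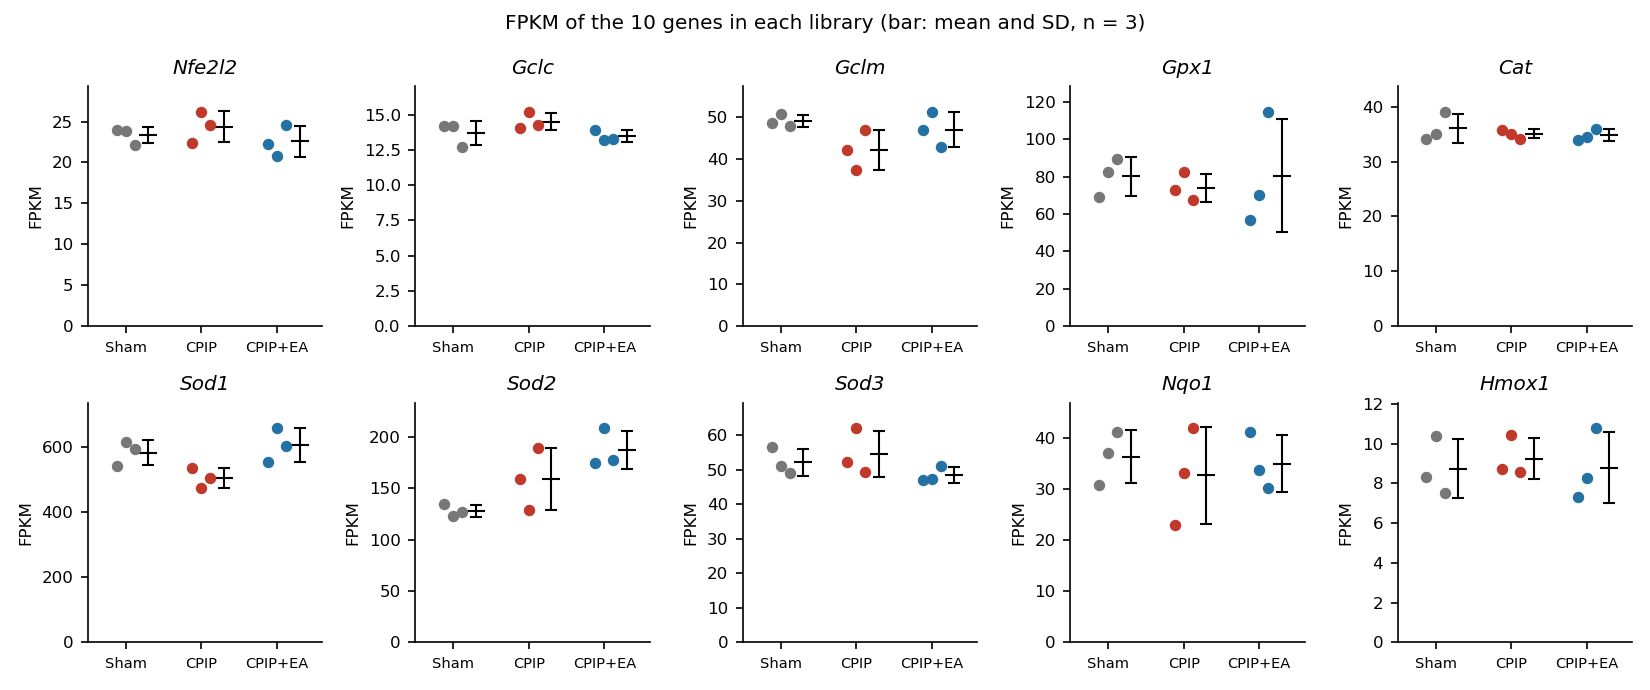
FPKM (vertical axes, linear from 0) of the 10 defense genes in the Sham, CPIP and CPIP+EA libraries, 1 point per library, with the mean and SD of each group (n = 3) as a bar beside the points. Sod2 sits at 123 to 134 FPKM in Sham and at 175 to 208 in CPIP+EA, whereas the points of most other genes overlap between groups.

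In the limma fit, CPIP differed from Sham past the threshold in 0 of the 10 genes, where 0.355% of all genes did. For CPIP+EA against CPIP 0 of the 10 passed, with 0% of all genes, and between CPIP+EA and Sham 0 of the 10 passed, with 0.483%. The smallest adjusted p of the 10 in the limma fit was 0.526, 0.996 and 0.104 in these comparisons. With no adjustment, a limma p under 0.05 was reached by 2 of 10 between CPIP and Sham (Gclm and Sod2; 8.66% of all genes), 1 between CPIP+EA and CPIP (Sod1; 4.29%) and 1 between CPIP+EA and Sham (Sod2; 12.2%). The first comparison shares its CPIP libraries with the second, and the Sham libraries enter the first and the third, so the comparisons are not independent of each other. No defense gene passed the threshold when any 1 of the 9 libraries was left out, CPIP+EA replicate 3 included.

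A p that misses the threshold does not show that a gene did not differ, and the intervals set how large a difference remains possible. Between CPIP and Sham, the 95% interval lay within 1.5-fold in either direction for 7 of the 10 genes (78.4% of all genes), with Sod2, Nqo1 and Gpx1 the exceptions. For CPIP+EA against CPIP it did so for 9 of 10, all but Nqo1 (80.9% of all genes), and between CPIP+EA and Sham for 9 of 10, all but Sod2 (75.9%). The median log2 fold change of the 10 was 0.011 between CPIP and Sham, 0.025 between CPIP+EA and CPIP, and -0.048 between CPIP+EA and Sham. Over all genes tested the medians were -0.0064, 0.012 and 0.0014.

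**Figure D2:**
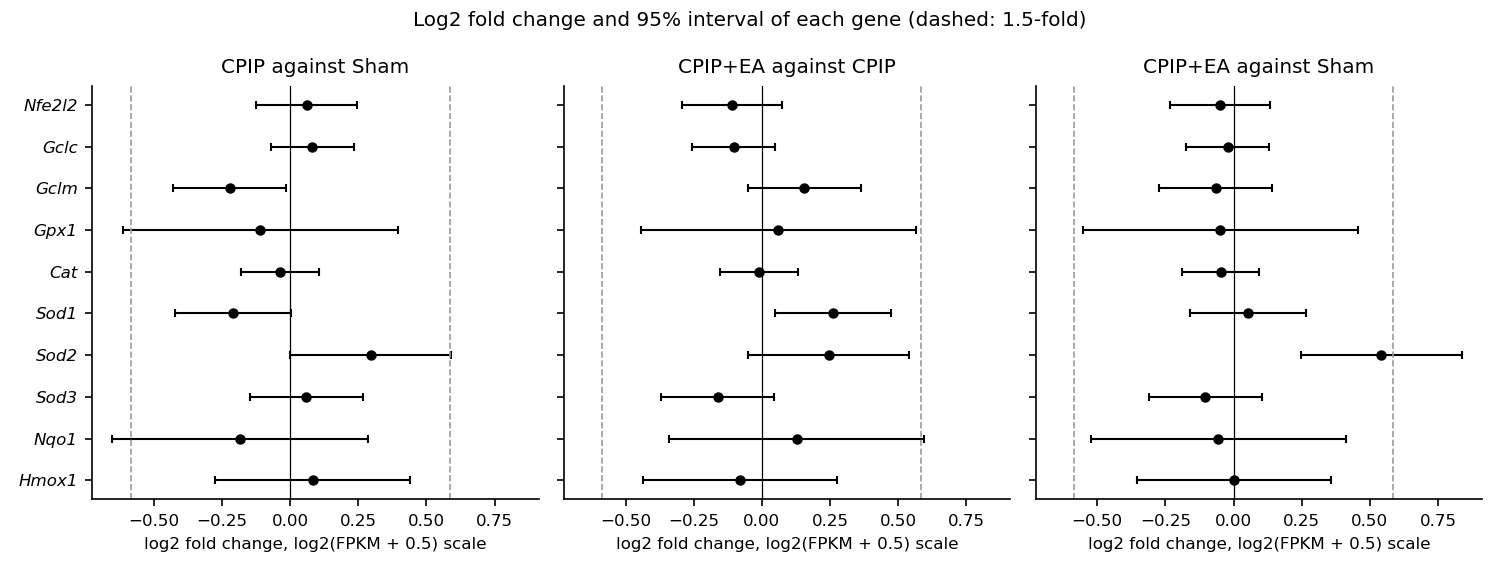
Log2 fold change (horizontal axis, log2(FPKM + 0.5) scale) of each defense gene in 3 comparisons, with its 95% limma interval, not adjusted for the number of genes, as a bar and 1.5-fold in either direction as dashed lines. The interval of Sod2 between CPIP+EA and Sham runs from 0.25 to 0.84, and most other intervals cross 0.

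Sod2 (NCBI gene 24787), the manganese dismutase of the mitochondrial matrix, came nearest to the threshold. It had FPKM values of 134, 123 and 127 for Sham, 159, 129 and 189 for CPIP and 175, 208 and 178 for CPIP+EA. All 3 CPIP+EA libraries were above all 3 Sham libraries, while CPIP spread over both. The group means were 128 ± 5.74, 159 ± 30.4 and 187 ± 18.6 FPKM (SD, n = 3). The log2 fold change between CPIP+EA and Sham was 0.54 (SE 0.13, interval 0.25 to 0.84), a fold of 1.46, with a limma p of 0.0025 and an adjusted p of 0.104. Over 20 alternative settings this log2 fold change ranged from 0.46 to 0.59 and its adjusted limma p from 0.0459 to 0.306. Sod2 was the only 1 of the 10 whose CPIP+EA and Sham libraries did not overlap, where 16.2% of all genes did not.

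Against Sham, CPIP had a Sod2 log2 fold change of 0.30 (interval 0.00047 to 0.59, unadjusted limma p of 0.0497, adjusted p = 0.575). This was 0.16 without CPIP replicate 3 and 0.44 without CPIP replicate 2, so it rested on which CPIP library was kept. For CPIP+EA against CPIP it was 0.25 (interval -0.050 to 0.54, adjusted p = 0.996), and it ran from 0.10 without CPIP replicate 2 to 0.38 without CPIP replicate 3. Beside Sod2, the summed FPKM of 6 satellite glia markers was 3628 to 3752 for Sham, 3796 to 4135 for CPIP and 4034 to 4219 for CPIP+EA. Most of this sum was Apoe, at 3420 to 3525, 3580 to 3935 and 3797 to 4006 FPKM. Against Sham, CPIP+EA had 3 of the 6 markers higher and 3 lower, and Glul and Slc1a3 were lower without overlap, so the sum does not stand for the list. That of 6 fibroblast markers was 978 to 1311, 836 to 1108 and 555 to 1109, with all 6 lower in CPIP+EA than in Sham and 5 of them at an unadjusted p under 0.05. Over the 9 libraries Sod2 and the satellite glia sum had an r of 0.88 and a rho of 0.85 (adjusted exact permutation p = 0.113 and 0.109). With the fibroblast sum Sod2 had an r of -0.77 and a rho of -0.67 (adjusted exact permutation p = 0.183 and 0.353). Once group means were removed, the r values were 0.59 and -0.56. The part of these cell types in the Sod2 result was not tested.

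Sod1 (24786), the copper-zinc dismutase of the cytosol and the most abundant of the 10 transcripts, was at 539, 613 and 591 FPKM for Sham, 534, 472 and 503 for CPIP and 552, 656 and 603 for CPIP+EA. The 3 CPIP libraries lay below all 6 others. The means were 581 ± 37.8, 503 ± 31.2 and 603 ± 52.3 FPKM (SD, n = 3). The log2 fold change was -0.21 (interval -0.42 to 0.0046, unadjusted limma p of 0.0542, adjusted p = 0.592) between CPIP and Sham and 0.26 (0.048 to 0.47, unadjusted limma p of 0.0215, adjusted p = 0.996) between CPIP+EA and CPIP, and the same CPIP libraries enter both values. It was 0.053 (interval -0.16 to 0.27) between CPIP+EA and Sham. The gap between the lowest Sham library and the highest CPIP library was small beside the spread within either group. In the comparison of CPIP+EA with CPIP, all 6 Schwann cell and myelin markers were lower (median log2 fold change -0.46), as were all 6 fibroblast markers (median -0.37). All 7 erythroid markers (median 0.76) and all 8 neutrophil markers (median 0.56) were higher. Of these markers, 1 Schwann cell marker had an unadjusted limma p under 0.05 in that comparison. Between CPIP and Sham, all 7 erythroid markers (median -0.69) and all 6 fibroblast markers (median -0.19) were lower. All 6 skeletal muscle markers (median 1.22) were higher. Of these, 1 erythroid and 1 fibroblast marker had an unadjusted limma p under 0.05. The part of these lists in the Sod1 values was not tested.

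Sod1 and Gclm, both lower in CPIP, were the 2 of 10 genes whose CPIP and Sham libraries did not overlap, where 15.9% of all genes did not. Sod1, higher with EA, and Gclc, lower with EA, did not overlap between CPIP+EA and CPIP, 2 of 10 against 8.23% of all genes.

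Sod3 (25352), the secreted dismutase of the extracellular space, was at 56.5, 51.2 and 49.0 FPKM for Sham, 52.3, 62.1 and 49.4 for CPIP and 47.2, 47.3 and 51.2 for CPIP+EA. The groups overlapped in all 3 comparisons. Its log2 fold changes lay between -0.16 and 0.059, and the intervals were within 1.5-fold throughout. The value for CPIP+EA against CPIP, -0.16, was -0.068 without CPIP replicate 2 and -0.23 without CPIP replicate 3.

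The mitochondrial and cytosolic dismutases were also set against each other within each library, where the scaling of the library cancels, a measure chosen after the values were seen. The ratio of Sod2 to Sod1 FPKM was 0.249, 0.201 and 0.214 for Sham, 0.298, 0.273 and 0.377 for CPIP and 0.317, 0.317 and 0.295 for CPIP+EA. All 6 CPIP and CPIP+EA libraries were above the 3 Sham libraries. The means were 0.221 ± 0.0249, 0.316 ± 0.0541 and 0.310 ± 0.0129 (SD, n = 3), so the ratio was 1.43-fold as high in CPIP as in Sham and 1.40-fold as high in CPIP+EA as in Sham. An exact two-sided permutation test gave p = 0.1 for each, the smallest value that 3 against 3 libraries allow. The fold was 0.981 between CPIP+EA and CPIP, and the libraries overlapped. A ratio within a library shows unequal levels and not which of the genes moved.

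**Figure D3:**
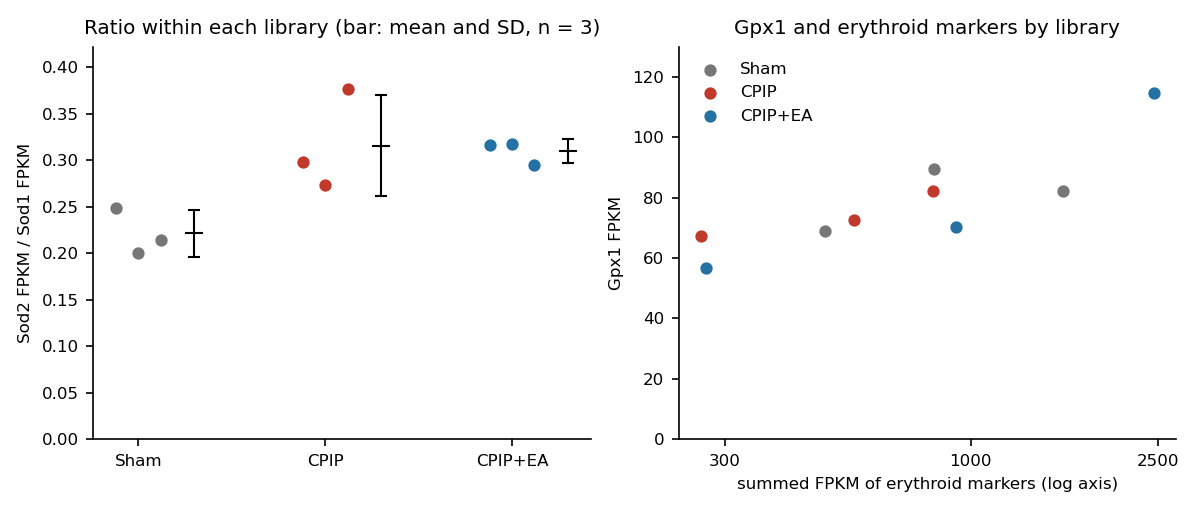
Left, the ratio of Sod2 to Sod1 FPKM (vertical axis from 0) in each library, with the mean and SD of each group (n = 3). Right, Gpx1 FPKM (vertical axis from 0) against the summed FPKM of the erythroid markers (horizontal log axis), 1 point per library. The Sham ratios lie between 0.201 and 0.249 and the others between 0.273 and 0.377, and the library with the highest Gpx1, 115 FPKM, is the one with the highest erythroid sum.

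Gclm (29739), the modifier subunit of glutamate-cysteine ligase, which makes the catalytic subunit work at the glutathione levels found in cells, was at 48.7, 50.8 and 48.0 FPKM in Sham. The CPIP values were 42.3, 37.5 and 47.0 FPKM, and those of CPIP+EA were 46.9, 51.4 and 42.9 FPKM. The CPIP libraries were below the Sham libraries, and the CPIP+EA libraries overlapped both. For CPIP against Sham the log2 fold change was -0.22 (interval -0.43 to -0.016, unadjusted limma p of 0.0373, adjusted p = 0.526), and -0.14 without CPIP replicate 2. That library had the highest sum of the 6 skeletal muscle markers, 137 FPKM against 7.71 to 42.1 in the others, and over the 9 libraries Gclm and this sum had an r of -0.68 and a rho of -0.25 (adjusted exact permutation p = 0.299 and 0.868). The part of muscle tissue in the Gclm value was not tested. For CPIP+EA against CPIP it was 0.16 (interval -0.050 to 0.36, adjusted p = 0.996), with 0.074 without CPIP replicate 2 and 0.23 without CPIP replicate 3.

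Gclc (25283), the catalytic subunit, was at 14.2, 14.2 and 12.7 FPKM for Sham, 14.03, 15.2 and 14.3 for CPIP and 13.95, 13.2 and 13.3 for CPIP+EA. It was among the steadiest of the 10 genes, and its log2 fold changes were 0.081, -0.10 and -0.022 in the 3 comparisons, with intervals within 1.5-fold. With a library left out, the value between CPIP and Sham ran from 0.030 to 0.11. The ratio of Gclm to Gclc FPKM, computed after the values were seen, averaged 3.59 ± 0.173 for Sham, 2.92 ± 0.419 for CPIP and 3.50 ± 0.349 for CPIP+EA (SD, n = 3). It was 0.812-fold between CPIP and Sham, with no overlap of the libraries and an exact permutation p of 0.1, again the smallest possible. The CPIP+EA and CPIP libraries overlapped in it (exact permutation p = 0.2).

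Gpx1 (24404), the selenium-dependent glutathione peroxidase of the cytosol and mitochondria and an abundant enzyme of red blood cells, was at 68.9, 82.4 and 89.5 FPKM for Sham, 72.7, 82.3 and 67.5 for CPIP and 56.8, 70.3 and 115 for CPIP+EA. CPIP+EA held both the lowest and the highest of the 9 values, and the group means of 80.2, 74.2 and 80.6 FPKM differed by less than the CPIP+EA SD of 30.4. The log2 fold change was -0.11 (interval -0.61 to 0.40) between CPIP and Sham and 0.060 (-0.44 to 0.57) between CPIP+EA and CPIP. Without CPIP+EA replicate 3 the latter was -0.23. The former was -0.21 without Sham replicate 1 and -0.027 without Sham replicate 3.

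Erythroid markers also varied widely across the libraries. Their summed FPKM was 490, 1570 and 834 for Sham, 566, 832 and 267 for CPIP and 274, 930 and 2448 for CPIP+EA. Over the 9 libraries, Gpx1 and the erythroid sum, both on a log2 scale, had a Pearson r of 0.87 and a Spearman rho of 0.85. The exact permutation p was 0.00225 for the former and 0.00607 for the latter, and the adjusted p was 0.101 and 0.109 over 90 relations of a defense gene with a marker list. The r was 0.82 without the 2 libraries farthest from the median erythroid sum and 0.89 once group means were removed. With the summed DRG neuron markers Gpx1 had an r of -0.83 and a rho of -0.93 (adjusted exact permutation p = 0.113 and 0.0675). The neuron markers did not move as a list, with 3 higher and 5 lower in CPIP than in Sham, so their sum stands mainly for abundant ones such as Uchl1, Tubb3 and Prph. Neutrophil markers had an r of 0.78 and a rho of 0.67 with Gpx1 (adjusted exact permutation p = 0.183 and 0.353). None of the 90 relations reached an adjusted p under 0.05, and 14 had a Pearson p and 11 a Spearman p under 0.05 before adjustment. The rats were perfused with saline before the ganglia were taken, a step that removes blood, and 6 of 7 erythroid markers were above 0 in all 9 libraries. The part of blood cells in the Gpx1 values was not tested.

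Cat (24248), the peroxisomal catalase, was at 34.1, 35.03 and 39.2 FPKM for Sham, 35.9, 35.2 and 34.3 for CPIP and 34.0, 34.5 and 36.1 for CPIP+EA. Its log2 fold changes were -0.038, -0.010 and -0.048, and its intervals in the 3 comparisons lay between -0.19 and 0.13. Of the 10 genes, Cat had the narrowest intervals. With the summed DRG neuron markers Cat had an r of -0.83 and a rho of -0.87, the smallest Pearson p of the 90 relations (adjusted exact permutation p = 0.101 and 0.109). With the summed Schwann cell and myelin markers it had an r of 0.69 and a rho of 0.87 (adjusted exact permutation p = 0.299 and 0.109), and with the endothelial markers an r of 0.72 and a rho of 0.67 (0.183 and 0.353). The part of these cell types in the Cat values was not tested.

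Nqo1 (24314), a quinone reductase and a classical Nrf2 target, was at 30.8, 37.1 and 41.1 FPKM for Sham, 23.0, 33.1 and 41.9 for CPIP and 41.1, 33.7 and 30.1 for CPIP+EA. CPIP held both the lowest and the highest library. For CPIP against Sham the log2 fold change was -0.18 (interval -0.65 to 0.28) and turned to 0.045 without CPIP replicate 1, the lowest library, while it was -0.38 without CPIP replicate 3. Its value for CPIP+EA against CPIP was 0.13 (interval -0.34 to 0.60) and it turned to -0.10 without the same library. Of the 10 genes, its interval was the one that left room for a 1.5-fold difference between CPIP+EA and CPIP.

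Hmox1 (24451), which encodes the inducible heme oxygenase that breaks heme down to biliverdin, iron and carbon monoxide, was at 8.32, 10.4 and 7.53 FPKM for Sham, 8.74, 10.4 and 8.57 for CPIP and 7.33, 8.25 and 10.8 for CPIP+EA. The 3 groups covered nearly the same range. The log2 fold changes were 0.082 (interval -0.27 to 0.44) between CPIP and Sham and -0.081 (-0.44 to 0.28) between CPIP+EA and CPIP. The highest value was again in CPIP+EA replicate 3, where the summed macrophage markers were also highest, at 157 FPKM against 80.7 to 112 in the other libraries. Of that sum C1qa gave 79.1 FPKM, and 5 of the 8 macrophage markers were highest in that library, while Mrc1, Cd163 and Adgre1 were not. Erythroid and neutrophil markers were also highest in that library. Over the 9 libraries Hmox1 had an r of 0.69 with the macrophage sum, 0.70 with the erythroid sum and 0.67 with the neutrophil sum, each with an adjusted exact permutation p of 0.299. The rho values were 0.67, 0.47 and 0.60 (adjusted exact permutation p = 0.353, 0.580 and 0.363), and the r values were 0.78, 0.86 and 0.76 once group means were removed. Without the 2 libraries farthest from the median of the marker sum, the r values were 0.38, 0.67 and 0.65. The fibroblast sum had an r of 0.66 and a rho of 0.73 (adjusted exact permutation p = 0.320 and 0.311). The part of these cell types in the Hmox1 value was not tested.

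Nfe2l2 (83619), which encodes Nrf2, was at 24.0, 23.8 and 22.2 FPKM for Sham, 22.4, 26.2 and 24.6 for CPIP and 22.3, 20.8 and 24.6 for CPIP+EA. All groups overlapped, and the log2 fold changes were 0.060, -0.11 and -0.050 with intervals between -0.29 and 0.24. With a library left out, the value between CPIP and Sham ran from 0.0077 to 0.12. That for CPIP+EA against CPIP ran from -0.17 to -0.055. Nrf2 is controlled mainly through the stability of its protein, which was not measured here.

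Genes of the same defense might move together across libraries, and the 45 pairs of the 10 genes were therefore compared after their values were seen. None reached an adjusted exact permutation p under 0.05. The smallest was 0.258 for Pearson's r, and for Spearman's rho it was 0.0913, for Cat and Gpx1 (rho = 0.90, r = 0.61). Of the 45 Pearson r values, 18 were above 0, and the median was -0.081. For each gene, the most similar of 13913 other genes with a mean of at least 1 FPKM is given as a description over 9 libraries. These were Cd52 for Hmox1 (r = 0.95), Dpm2 for Nqo1 (0.91), Fbxl18 for Gclc (0.93), Ism2 for Gclm (0.98), Trip4 for Sod1 (0.97), Cdc37 for Sod2 (0.96), Eif4enif1 for Sod3 (0.92), Fbxo32 for Cat (0.98), Septin2 for Gpx1 (0.97) and Mettl15 for Nfe2l2 (0.95). With so many genes searched, an r of at least 0.91 was reached for all 10, and no nearest gene was shared. Septin2 was named from its gene identifier.

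The wider defense was read from 11 lists of 134 genes, the 10 included, covering Nrf2 and its regulators, glutathione, thioredoxin and peroxiredoxin, dismutases and metal carriers, quinone reduction, NADPH supply, heme and ferritin, peroxisomes, and the oxidases that make reactive oxygen species. Of these, 133 were in the table, on 134 rows, since Gstm3 is listed under a pair of identifiers. The filter on low values left out 4 rows (Gpx5, Gsta5, Hao2 and Nox3), and 130 were tested. By the limma test, 0 of 130 passed the threshold in each of the 3 comparisons. At an unadjusted p under 0.05 there were 11 higher and 6 lower between CPIP and Sham, 13.1% against 8.66% of all genes. There were 6 higher and 1 lower between CPIP+EA and CPIP, 5.38% against 4.29%, and 14 higher and 3 lower between CPIP+EA and Sham, 13.1% against 12.2%. The median log2 fold change of the list genes was 0.0029, 0.022 and 0.021 in these comparisons.

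**Figure D4:**
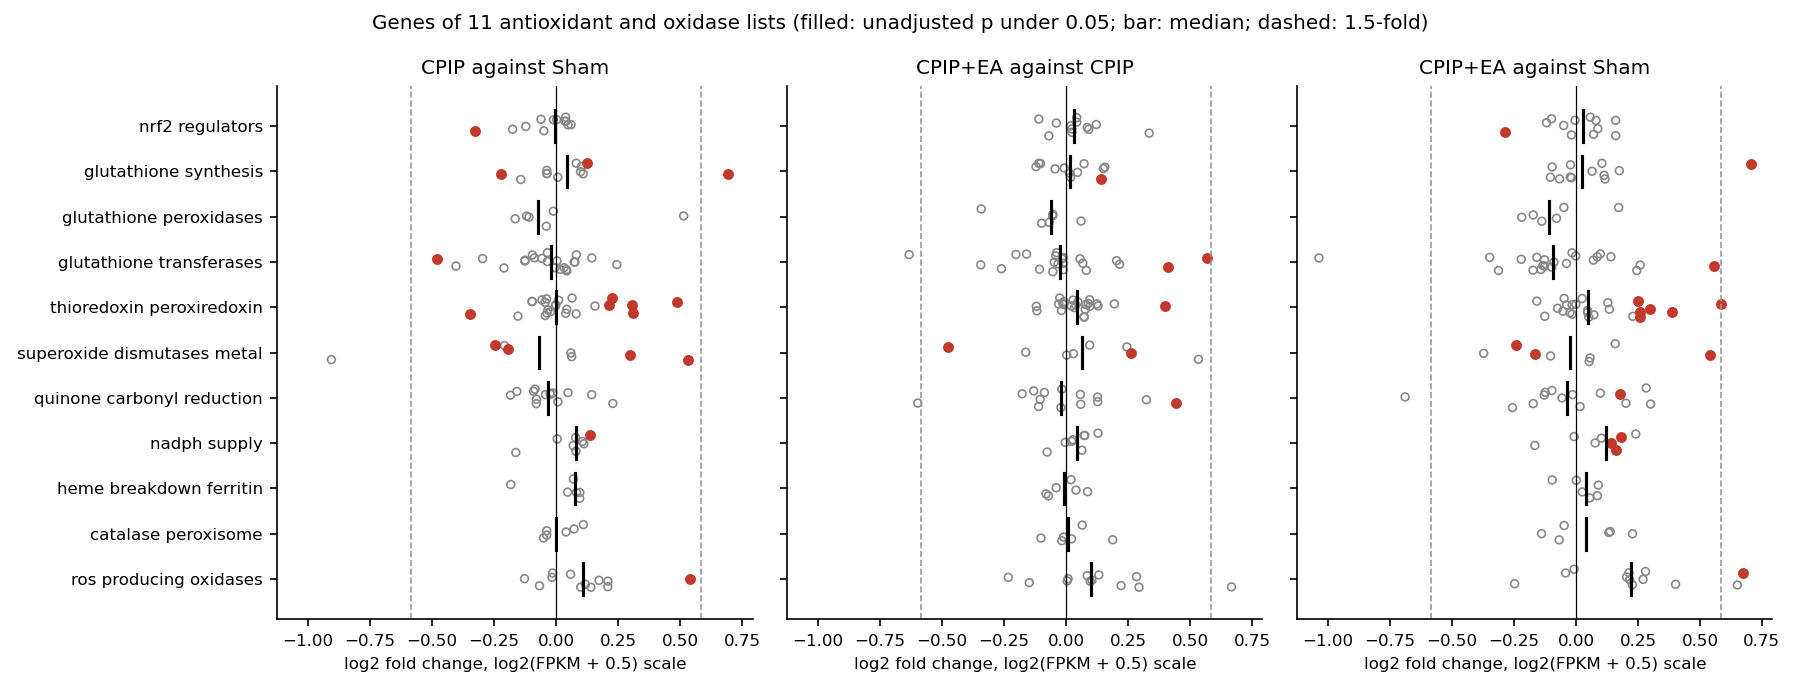
Log2 fold change (horizontal axes, log2(FPKM + 0.5) scale) of each tested gene of the 11 lists in 3 comparisons, 1 point per gene, filled where the unadjusted limma p was under 0.05. Short bars are list medians, dashed lines 1.5-fold, and vertical scatter within a list has no meaning. Points to the right of 1.5-fold that are filled are Ggt5 in the comparison of CPIP with Sham and Ggt5 and Xdh in that of CPIP+EA with Sham.

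In the thioredoxin and peroxiredoxin list, whose 24 genes encode the second peroxide-removing system of the cell, 5 were higher and 1 lower between CPIP and Sham at an unadjusted p under 0.05, 25% of the list against 8.66% of all genes. In CPIP+EA against Sham 6 were higher and 0 lower, 25% against 12.2%. Other lists had shares as high: in CPIP against Sham the dismutase and metal list had 50% (2 higher, 2 lower) and the glutathione synthesis list 25%, and in CPIP+EA against Sham the dismutase and metal list and the NADPH list had 37.5% each. The thioredoxin list medians were -0.0022 and 0.046, and the whole list split into 11 higher and 13 lower in the first comparison and 14 higher and 10 lower in the latter. Srxn1, sulfiredoxin, which reactivates overoxidized peroxiredoxins and is a known target of Nrf2 and AP-1, had the smallest p of all list genes in both comparisons with Sham. It was at 31.7, 32.1 and 30.7 FPKM for Sham, 43.7, 43.6 and 45.9 for CPIP and 52.7, 48.1 and 42.1 for CPIP+EA.

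The 6 CPIP and CPIP+EA values of Srxn1 lay well above the 3 Sham values. The log2 fold change was 0.49 (SE 0.078, adjusted p = 0.0269) between CPIP and Sham and 0.58 (SE 0.078, adjusted p = 0.00772) between CPIP+EA and Sham. The latter met the p limit and missed the fold limit narrowly, at 1.498-fold. Over 20 alternatives its adjusted p ranged from 0.00189 to 0.0423 and was under 0.01 in 5. It passed both limits in 2 of them, with a pseudocount of 0.1, at 0.589 on the log2 scale, and without CPIP+EA replicate 3, at 0.668. Without CPIP+EA replicate 1 it was 0.51. The Srxn1 libraries of CPIP+EA and CPIP overlapped. Its promoter is shown because it holds the motif TGANTCA at a pair of positions, -62 to -56 and -5 to 2 from the start. The matches are in capitals, 5′ to 3′, and read as the motif on both strands. The core TGACNNNGC was not found in the Srxn1 promoter. Among the list genes with the smallest p of their list, it was found in Gpx2, Blvra and Mt1, and in 12.1% of all promoters. Of these list genes, Ggt5, Gsr, Msra, Gpx8 and Gstt2 had no promoter entry, and only Srxn1 held TGANTCA.
Srxn1, GRCr8 chr3:161064720-161064813, plus strand: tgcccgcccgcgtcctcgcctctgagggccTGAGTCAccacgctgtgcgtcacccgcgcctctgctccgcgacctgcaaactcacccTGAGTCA

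Sulfiredoxin acts on the peroxiredoxins Prdx1 to Prdx4, whose log2 fold changes between CPIP and Sham were 0.043, 0.039, -0.097 and -0.044, with overlapping libraries. Txnrd1, the cytosolic thioredoxin reductase, was at 31, 30 and 30.2 FPKM for Sham, 38.3, 36.2 and 38.6 for CPIP and 39.5, 38.2 and 34.99 for CPIP+EA. Prdx6, a peroxiredoxin that also reduces lipid peroxides, was at 66.2, 68.1 and 74.8 FPKM for Sham, 83.3, 86.2 and 89.9 for CPIP and 86.3, 92.6 and 94.9 for CPIP+EA. These peroxiredoxins and Txnrd1 were chosen after their values were seen, and for Txnrd1 and Prdx6 the Sham libraries were below all 6 others. Their log2 fold changes between CPIP and Sham were 0.31 and 0.31, with adjusted limma p of 0.0596 and 0.0874. Between CPIP+EA and Sham they were 0.30 and 0.39, with adjusted limma p of 0.0504 and 0.0230. Prdx1 to Prdx4 had values of 0.025, 0.13, -0.024 and -0.053 in that comparison, and of these only Prdx2 had libraries that did not overlap, at 385.53 to 417 FPKM for CPIP+EA against 359.58 to 372 for Sham (adjusted limma p of 0.477). An adjusted p under 0.05 between CPIP+EA and Sham was reached by 4 list genes, Srxn1, Prdx6, Ggt5 and Xdh. The share of all genes at this limit was not computed, so this count cannot be set against it. Msra, which repairs oxidized methionine, was at 20.5, 21.3 and 16.1 FPKM for Sham, 14.8, 15.6 and 14.6 for CPIP and 18.3, 22.4 and 19.1 for CPIP+EA. The CPIP libraries were below all others. The log2 fold change was -0.35 between CPIP and Sham (unadjusted limma p of 0.0133, adjusted p = 0.353) and 0.40 between CPIP+EA and CPIP (unadjusted limma p of 0.00643, adjusted p = 0.996), and the same CPIP libraries enter both.

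Ggt5, a membrane gamma-glutamyltransferase that cleaves glutathione conjugates outside the cell, was at 12.6, 10.4 and 10.7 FPKM for Sham, 17.9, 17.4 and 19.96 for CPIP and 22.1, 18.5 and 15.6 for CPIP+EA. The Sham libraries were below all others. Its log2 fold change was 0.69 between CPIP and Sham (adjusted p = 0.0510) and 0.71 between CPIP+EA and Sham (adjusted p = 0.0318). Xdh, the xanthine dehydrogenase that can act as a superoxide-producing oxidase after ischemia, was at 5.98, 6.27 and 5.14 FPKM for Sham, 8.03, 8.21 and 9.77 for CPIP and 8.44, 9.17 and 11.1 for CPIP+EA. Its log2 fold change was 0.54 between CPIP and Sham (adjusted p = 0.120) and 0.67 between CPIP+EA and Sham (adjusted p = 0.0358). Both genes exceeded or neared 1.5-fold and missed the limit on p.

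Among the glutathione transferases, which attach glutathione to electrophiles, Gstt3 was at 21.3, 21.7 and 16.1 FPKM for Sham, 12.9, 13.8 and 14.8 for CPIP and 20.2, 17.6 and 25.1 for CPIP+EA. The CPIP libraries were below all others, with a log2 fold change of -0.48 against Sham (adjusted p = 0.296) and of 0.57 for CPIP+EA against CPIP (adjusted p = 0.996), where the same CPIP libraries enter both. Gstt2 was at 6.84, 6.60 and 6.74 FPKM for Sham, 6.44, 8 and 8.13 for CPIP and 8.84, 10.7 and 10.98 for CPIP+EA. All CPIP+EA libraries were the highest, and the log2 fold change against Sham was 0.56 (adjusted p = 0.0505). These genes belong to a family of similar copies, and how reads were shared among copies is not given in the sources used here.

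**Figure D5:**
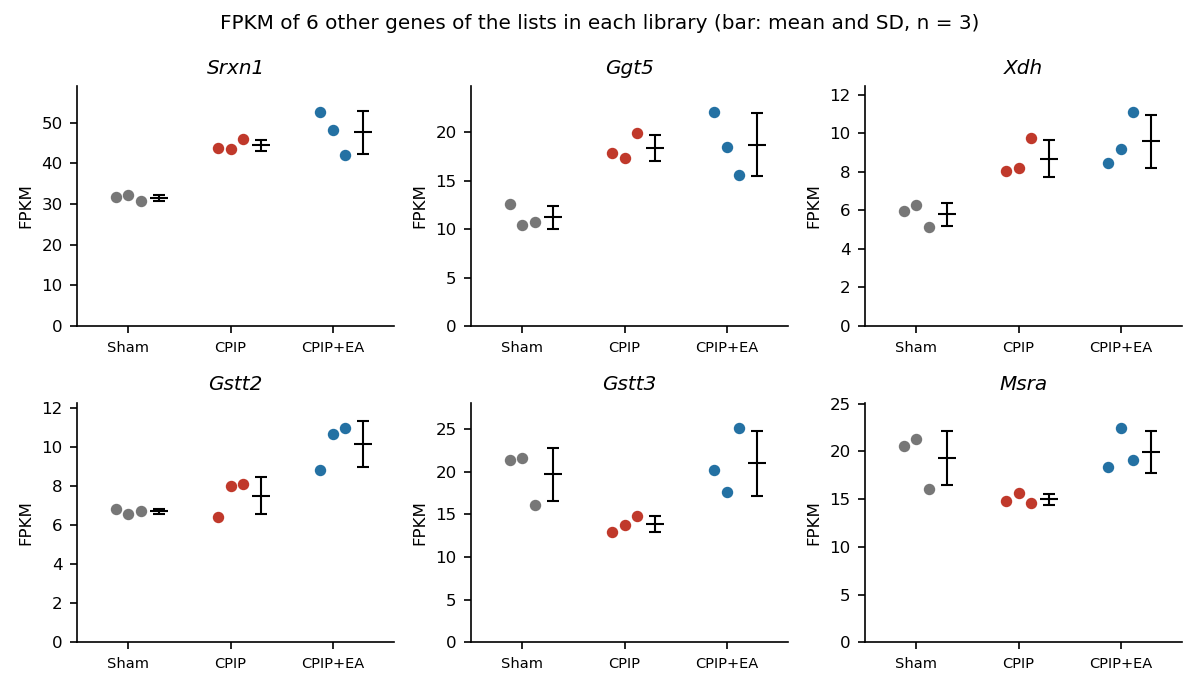
FPKM (vertical axes from 0) of 6 list genes outside the 10, 1 point per library, with the mean and SD of each group (n = 3) as a bar. In Srxn1, Ggt5 and Xdh the 3 Sham points are below the other 6, and in Gstt3 and Msra the 3 CPIP points are the lowest.

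In the remaining lists the gene outside the 10 with the smallest p in a comparison had an adjusted limma p of at least 0.190. Bach2, a repressor that competes for antioxidant response elements, was at 2.44, 2.84 and 2.45 FPKM for Sham, 1.94, 2.00 and 1.90 for CPIP and 1.78, 1.99 and 2.32 for CPIP+EA, with log2 fold changes of -0.33 and -0.29 against Sham. Atox1, a copper chaperone, had log2 fold changes of -0.20 and -0.17 against Sham, and Pgd, which makes NADPH in the pentose phosphate pathway, of 0.14 and 0.16. Mt1, a metallothionein that binds zinc and copper, was at 14.7, 19.1 and 17.9 FPKM for Sham, 25.9, 30.8 and 19.6 for CPIP and 16.3, 14.7 and 23.6 for CPIP+EA. The CPIP libraries were above those of Sham, with an Mt1 log2 fold change of 0.53 (unadjusted limma p of 0.0268, adjusted p = 0.468). Between CPIP+EA and CPIP, where the same CPIP libraries enter and the groups overlapped, it was -0.48 (unadjusted limma p of 0.0425, adjusted p = 0.996), and Mt1 was the 1 list gene lower at an unadjusted p under 0.05 in that comparison. Leaving out CPIP replicate 2 gave -0.33, and leaving out CPIP+EA replicate 3 gave -0.67. Gpx2, the gastrointestinal glutathione peroxidase, ranged from 39.2 to 117 FPKM with overlapping groups in all comparisons. In the comparison of CPIP+EA with CPIP, Gsr, the glutathione reductase, had a log2 fold change of 0.14, Cbr3, a carbonyl reductase, of 0.44, and Maff, a small Maf partner of Nrf2, of 0.34, each with an adjusted limma p of 0.996. Cbr3 was 0.23 without CPIP+EA replicate 2, and Maff was 0.19 without CPIP+EA replicate 3, the library with their highest value in each case. The other genes with the smallest p of their list were Akr1b8, Akr1a1, Tkt, Blvra, Blvrb, Pex5, Pex14, Paox, Gpx8 and Duox1, with log2 fold changes between -0.23 and 0.23. Several of these depended on the libraries or the pseudocount. Gpx8 between CPIP+EA and Sham was -0.22, with -0.44 without CPIP+EA replicate 3 and -0.060 without CPIP+EA replicate 1. Between CPIP and Sham, Blvra was -0.18, with -0.35 without Sham replicate 1 and -0.074 without Sham replicate 3, and Akr1b8 was 0.23, with 0.36 without Sham replicate 2 and 0.094 without CPIP replicate 2. Duox1 between CPIP+EA and CPIP was -0.23 and became -0.64 when the pseudocount was 0.1 and -0.13 when it was 1. Over the alternatives run for the other genes of this group, the values stayed between -0.19 and 0.29.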

How the data were processed

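RNA-Seq of ipsilateral L4–6 DRGs was analysed in 9 libraries, 3 each of Sham, CPIP and CPIP+EA, grouped by the sample labels, which give no batch or date. The methods give 3 rats per group, and neither they nor the labels say that 1 library is 1 rat. If libraries share a rat, p-values measure only the spread between these samples. The authors sequenced 50-base single-end reads on a BGISEQ-500, filtered them with SOAPnuke 1.5.2 (adaptors, over 10% unknown bases, low quality) and deposited FPKM, 1 value per gene for every library, at 2 decimals. The aligner, genome build, annotation and use of strand are not given in the sources used here. The authors' own ratios and p-values in the same table were not used.

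Low FPKM values were checked for steps of whole reads only in genes whose smallest value above 0 was at least 0.1 FPKM. Of these values, 20% lay within 0.1 of a whole multiple of the smallest, the share that an even spread gives. Genes with smaller values were left out, so the check cannot decide for them. Gsta2, for example, was at 0.24 in Sham replicate 1, 0.08 in Sham replicate 2 and 0.16 in CPIP+EA replicate 2. Counts were not recovered, and no counting error is given. The study states a similar number of clean reads for each library, which was not used here. Genes with a mean of at least 0.1 FPKM were tested on the log2(FPKM + 0.5) scale in limma 3.58.1 under R 4.3.3 (eBayes with trend, 9 libraries in 1 fit, no covariate, two-sided). This scale understates changes of low genes. Intervals are at 95% and not adjusted. Ratios and correlations were tested by exact permutation (Python 3.11.15 with numpy 2.4.6, ranks from scipy 1.17.1), and promoter sequences are from RefSeq. The fit was first tested on simulated data.

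The 10 genes, the pathway and marker lists and the tests were chosen with earlier results of these data known. Other genes named are, for each of the 11 lists and each comparison, the gene outside the 10 with the smallest p, any gene past the threshold and, for each of the 10, the gene most like it. Txnrd1 and Prdx1, Prdx2, Prdx3, Prdx4 and Prdx6 were added after their values were seen. Alternatives were other pseudocounts, filters, scalings, trends and thresholds, a block for the replicate number, fits restricted to the 2 groups at hand, and each library left out in turn.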

Additional observations from a re-analysis of the deposited data

How the results depend on the processing

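The count of the 10 defense genes past the threshold was 0 in each comparison under every alternative except an unadjusted p under 0.05, which gave 2 (CPIP against Sham), 1 (CPIP+EA against CPIP) and 1 (CPIP+EA against Sham). Of the list genes, the same limit gave 17, 7 and 17. For an adjusted p under 0.05 with no fold limit, no share of all genes was computed. That limit gave 1 list gene for CPIP against Sham and 4 for CPIP+EA against Sham. In the latter comparison 1 passed with a pseudocount of 0.1, and 0 to 1 passed with a library left out. The labels do not say whether equal replicate numbers pair samples. The deviations from group means of 9 same-numbered pairs had r from -0.236 to 0.297, against -0.223 to 0.28 for 18 other pairs. The median r was 0.006 and -0.022. With 3 libraries per group these r values constrain one another, so the check cannot exclude pairing. With the replicate block, 0 defense genes passed in each comparison, and the count over all genes was 26, 0 and 42 in place of 61, 0 and 83.

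The log2 fold changes below turned direction. For CPIP+EA against CPIP, Cat was 0.0013 with median centring. Against Sham, CPIP+EA had an Hmox1 value of -0.028 on the TPM scale. With a library left out, the ranges between CPIP and Sham were -0.014 to 0.21 (Hmox1), -0.38 to 0.045 (Nqo1), -0.036 to 0.13 (Sod3) and -0.077 to 0.022 (Cat). For CPIP+EA against CPIP they were -0.23 to 0.033 (Hmox1), -0.10 to 0.32 (Nqo1), -0.035 to 0.0070 (Cat) and -0.23 to 0.28 (Gpx1), and 0.918 to 1.085 for the fold of the Sod2 to Sod1 ratio. Between CPIP+EA and Sham they were -0.15 to 0.12 (Hmox1), -0.18 to 0.044 (Nqo1), -0.073 to 0.0045 (Gclc), -0.0091 to 0.12 (Sod1), -0.087 to 0.011 (Cat), -0.33 to 0.17 (Gpx1) and -0.11 to 0.0054 (Nfe2l2). The causes were not tested. Scalings moved the median of all genes by at most 0.026. With a mean of at least 1 FPKM, Duox1 gave no value. The values carry no counts, and 3 libraries per group limit what small changes can be seen.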
